A study of Mus musculus with 6 samples.

Results

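The 48 genes described here belong to the Wnt pathway, and their transcripts were read in neural stem cells of adult mice, either quiescent or activated, from the ventricular-subventricular zone, the neurogenic layer beside the lateral ventricles. They were listed by name as 9 ligands and ligand-maturing or potentiating factors, 17 receptors and coreceptors, 10 inhibitors and 12 intracellular effectors, out of 18193 genes with a probe set assigned to that gene alone. Of the 48, 47 had such a probe set and 37 were bright enough to be tested. Tcf7 had none, and 10 genes lay below the filter on dim genes, a mean log2 signal of 6.018. A probe set is the group of array probes that reads one transcript region, and the brightest one of each gene was used unless stated.

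Flow-sorted cells gave RNA for 6 one-colour arrays, 3 in each group, which the labels call biological replicates. Cells of both groups came from the brains of adult mice, carried a GFP reporter under the GFAP promoter, were positive for CD133 and were negative for CD24. Activated cells were in addition positive for the EGF receptor, and the quiescent label does not mention that receptor. The labels used here give no strain, sex or exact age and do not say whether animals were pooled, so the p-values measure the spread between these arrays. Values are log2 MAS5 signals, and each difference is the activated mean minus the quiescent mean, ± SE, with the Benjamini-Hochberg adjusted p over all tested genes from limma (n = 3 arrays per group). A gene was called at an adjusted p under 0.05. The signal of one probe set cannot be set against that of another, so levels are compared within a gene only.

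Wnt proteins are secreted lipid-modified ligands. Porcn attaches the lipid, Frizzled receptors bind the ligand together with Lrp5 or Lrp6, and Dishevelled proteins (Dvl) carry the signal inward. Without a ligand, Axin, Apc and Gsk3b mark beta-catenin (Ctnnb1) for destruction, and with a ligand beta-catenin enters the nucleus and acts with Tcf and Lef factors on targets such as Axin2. Rspondins, through Lgr receptors, remove the ubiquitin ligases Znrf3 and Rnf43, which otherwise clear Frizzled from the membrane. In the adult brain the pathway is known for its part in the proliferation and fate of neural progenitors.

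Several measures moved with the groups over the whole series. The 4 genes behind the sort were all called, Egfr and Cd24a higher and Gfap and Prom1 lower in activated cells. Only the EGF receptor was named for 1 group alone. CD24, CD133 (Prom1) and the GFAP reporter were selected alike in both groups, so the gates do not give the directions of these 3 genes. After median centring, and after scaling to the hybridisation controls, 3 of the 4 were called. The hybridisation controls lay between 14.01 and 14.94 on quiescent and between 13.65 and 13.73 on activated arrays, and array background, the 95th percentile of 27 control probe sets for bacterial transcripts, lay between 5.45 and 6.10 against 4.52 and 4.67 (two-sided exact permutation p = 0.1 for each, the smallest that 3 arrays against 3 can give). All tested genes had a median difference of 0.0137, which became 0.568 when each array was scaled to its median and 0.657 when it was scaled to its hybridisation controls. The higher share of called genes went from 49.6% to 74.8% and 76.4%. The signal of Gapdh probe sets at the 3′ end exceeded that at the 5′ end by 1.54 to 2.59 on quiescent and by 1.19 to 1.51 on activated arrays (two-sided exact permutation p = 0.1), whereas the same measure for actin overlapped between groups. The part of RNA quality in the differences between probe sets of a gene was not tested. All 10 astrocyte markers were lower in activated cells, and 5 of 5 measured progenitor and 5 of 8 neuroblast markers were higher. These counts include the sort genes Gfap, Egfr and Cd24a, and the sort itself selected activated cells for the EGF receptor. Markers of vessel and myelinating cells were also lower in activated cells, and their values stand with the receptors. In these bulk sorts, fewer cells of a type and less RNA per cell cannot be told apart.

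More Wnt members were lower than higher in activated cells, and 21 were not called. Of the 37 tested members 14 were lower and 2 were higher, which makes 16 called, beside 17.6% lower, 17.3% higher and 34.9% called among all 11575 tested genes. The lower genes were 7 receptors, 4 inhibitors, 2 ligand genes and 1 effector, while both higher genes were Dishevelled effectors. The arrays of the groups did not overlap for 20 of the 37, beside 50.7% of all tested genes. The median difference was -0.305, against 0.0137 for all tested genes, but it turned to 0.25 after median centring and to 0.339 after scaling to the hybridisation controls, where all tested genes stood at 0.568 and 0.657. It was -0.613, -0.47 and -0.661 without quiescent array 1, 2 or 3 and -0.491 without activated array 1. After either scaling 10 members were lower and 6 higher, and 12 of the 16 calls were kept with their direction. Of all 11575 tested genes, 3527 were then higher and 1191 lower after median centring. After scaling to the hybridisation controls 3059 were higher and 943 lower.

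**Figure D1:**
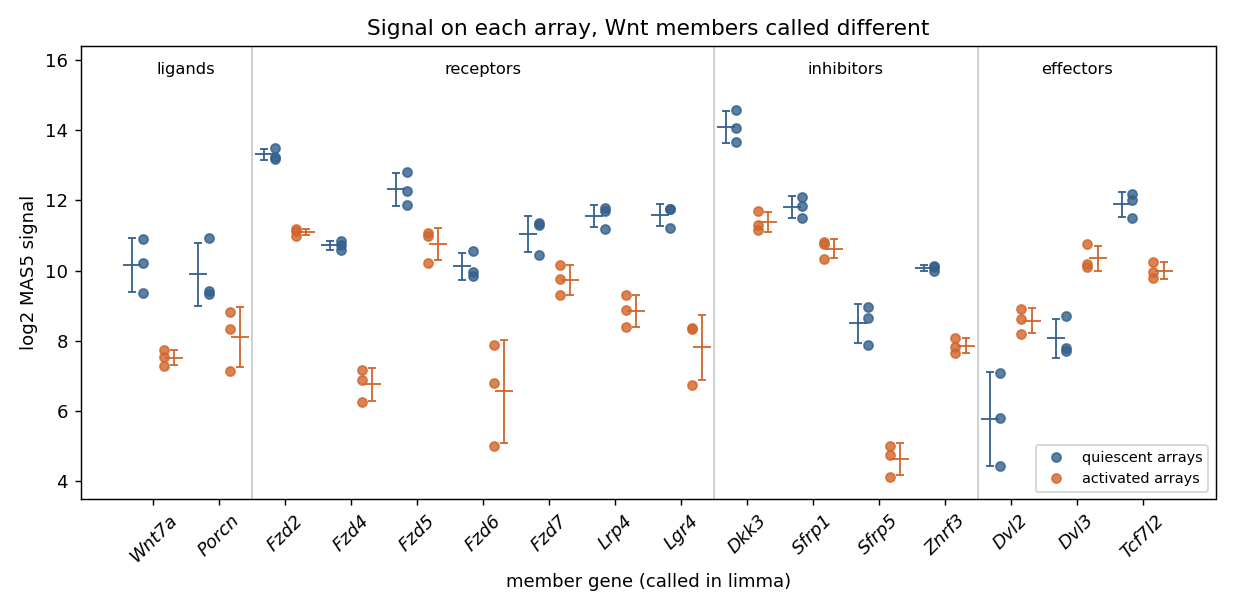
Log2 MAS5 signal (vertical axis) of the 16 called Wnt members (horizontal axis, grouped by role) on each of 3 quiescent (blue points) and 3 activated (orange points) arrays, with the group mean and SD beside the points. The 3 arrays of one group lie wholly above those of the other for each gene, and quiescent arrays are the higher ones except for Dvl2 and Dvl3.

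Among the ligand genes, Wnt7a and Porcn were lower in activated cells and the other 4 that were tested were not called. Of all tested genes 17.6% were lower. Wnt7a, a ligand of the developing and adult forebrain, read 10.89, 10.23 and 9.37 on quiescent arrays 1 to 3 and 7.29, 7.73 and 7.54 on activated arrays 1 to 3. All quiescent arrays were above all activated ones, and the gene fell by 2.64 ± 0.45 (6.25-fold, adjusted p = 0.00147 in limma). Its 2 further probe sets were dim, with means of 3.11 or lower, and differed by -0.22 and -0.94.

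Porcn, the acyltransferase that Wnt ligands need for secretion and activity, read 9.34, 9.42 and 10.92 on quiescent and 8.35, 8.83 and 7.15 on activated arrays. The groups did not overlap, and the gene fell by 1.79 ± 0.56 (adjusted p = 0.0303 in limma). This call rested on single arrays. It was lost without quiescent array 3 (adjusted p = 0.0827), activated array 1 (0.0605) or activated array 3 (0.11), without a variance trend (0.0506), after median centring (0.0955) and after scaling to the hybridisation controls (0.199).

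The remaining tested ligands overlapped between groups. Wnt7b, the close relative of Wnt7a, read 7.52, 7.23 and 9.58 on quiescent and 8.58, 8.77 and 6.88 on activated arrays, a difference of -0.03 with a 95% interval from -1.61 to 1.55. That interval is too wide to show that Wnt7b was alike in the groups. Wnt4, Wnt5a and Wnt5b, the latter pair being ligands of beta-catenin-independent signalling, differed by -0.29, -0.77 and 0.33, with SE of 0.79 to 0.81. At least 1 array was at or below background for each of these 3 genes. Wnt3 and the potentiators Rspo1 and Rspo3 lay below the filter on dim genes. Wnt3 was at or below background on all 3 quiescent arrays and on 2 of the activated arrays.

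Receptors made up 7 of the 14 lower members. Of 17 receptor genes 14 were tested, 7 were lower, 0 were higher and 7 were not called, with a median difference of -0.94. Among all tested genes 17.6% were lower and 17.3% higher. At an unadjusted p under 0.05 in limma, 1 receptor, Fzd3, was higher. After either scaling to array medians or hybridisation controls Fzd3 was called higher. Within the Frizzled family, which comprises 10 membrane-spanning receptors, 9 were tested and 5 were lower.

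Fzd4, known as the receptor of Norrin as well as of Wnts, had the largest difference of the tested Frizzled genes. It read 10.84, 10.58 and 10.73 on quiescent and 6.25, 6.89 and 7.16 on activated arrays, and it fell by 3.95 ± 0.40 (15.5-fold, adjusted p = 8.83e-05 in limma). The quiescent arrays had an SD of 0.13 and all lay above every activated array. Its further probe sets differed by -2.95 and -3.96, the same direction.

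Fzd6, a receptor also known from planar cell polarity, read 9.97, 10.57 and 9.85 on quiescent and 5.0, 6.79 and 7.89 on activated arrays. It fell by 3.57 ± 0.66 (11.9-fold, adjusted p = 0.00235 in limma), and the activated arrays spread widely, with an SD of 1.46 against 0.39. Fzd2 read 13.50, 13.19 and 13.25 on quiescent and 11.00, 11.18 and 11.13 on activated arrays, and fell by 2.21 ± 0.23 (4.61-fold, adjusted p = 0.000105). Its groups were tight and far apart for this probe set, whereas its 2 further probe sets differed by only -0.73 and -0.82 and overlapped between groups. Averaged over the 3, Fzd2 differed by -1.25 (adjusted p = 0.0291).

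Fzd5 and Fzd7 had smaller differences. Fzd5 read 12.81, 12.28 and 11.87 on quiescent and 10.22, 11.06 and 11.00 on activated arrays, and fell by 1.56 ± 0.33 (adjusted p = 0.00503 in limma). Fzd7 read 11.37, 11.29 and 10.44 on quiescent and 9.30, 9.75 and 10.16 on activated arrays, and fell by 1.30 ± 0.36 (adjusted p = 0.0178). Neither gene overlapped between groups, but both calls were lost after median centring (adjusted p = 0.0747 for Fzd5, 0.183 for Fzd7) and after scaling to the hybridisation controls (0.0768 and 0.267). Fzd5 was also not called when its probe sets were averaged (0.0742) or when the most variable one was used (0.373). Fzd7 was not called without quiescent array 1 (0.0624) or 2 (0.0658) or without activated array 1 (0.0729) or 2 (0.0531).

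The other Frizzled genes were not called. Fzd3, a receptor of axon guidance and polarity, was the one tested Frizzled gene with a positive difference, 0.82 ± 0.32 (adjusted p = 0.0675 in limma). Its activated arrays, at 10.88, 10.52 and 11.22, all lay above its quiescent arrays, at 10.17, 10.32 and 9.67, and its 5 further probe sets differed by 0.61 to 1.28. It was called higher without the probe set type that may cross-hybridise (adjusted p = 0.0322), when its probe sets were averaged (0.0262), after median centring (0.0103) and after scaling to the hybridisation controls (0.0218). Fzd1, Fzd8 and Fzd9 differed by -0.57, -0.03 and -0.30. Fzd10 fell below the filter, reading 6.93, 6.07 and 6.60 on quiescent and 4.80, 2.46 and 4.37 on activated arrays, with 2 of the activated arrays at or below background. With no filter its difference of -2.66 had an adjusted p of 0.0454.

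In their brightest probe sets, Lrp4 was lower, and the coreceptors Lrp5 and Lrp6 were not called. Lrp6, which pairs with Frizzled in beta-catenin signalling, read 10.29, 10.40 and 10.09 on quiescent and 10.24, 10.52 and 10.07 on activated arrays, a difference of 0.02 with a 95% interval from -0.62 to 0.66. Its further probe set differed by 2.42 without overlap, and Lrp6 was called higher when its probe sets were averaged (1.22, adjusted p = 0.0426 in limma). Lrp5, which acts in the same way, differed by 0.68 ± 0.55 and overlapped between groups. Lrp4, a relative that binds sclerostin and agrin, read 11.69, 11.79 and 11.19 on quiescent and 8.39, 9.30 and 8.87 on activated arrays. It fell by 2.70 ± 0.34 (6.50-fold, adjusted p = 0.000255 in limma), with no overlap.

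Lgr4, the rspondin receptor, read 11.76, 11.76 and 11.21 on quiescent and 8.37, 6.74 and 8.34 on activated arrays. It fell by 3.76 ± 0.46 (13.5-fold, adjusted p = 0.000226 in limma), every quiescent array lay above every activated one, and its further probe set differed by -3.35. Ryk, a Wnt-binding receptor with a kinase-like domain, overlapped between groups and was 0.48 ± 0.48 higher, a difference that was not called. Its further probe sets differed by -0.58, without overlap, and by 0.08. When its probe sets were averaged, Ryk differed by -0.00397 (adjusted p = 0.995 in limma). Ror1 and Ror2, receptors of Wnt5a, lay below the filter, and Ror1 was at or below background on all 3 activated arrays.

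Marker genes of blood vessel cells and of myelinating cells were higher on the same quiescent arrays. For 10 measured endothelial markers the summed linear signal ranged from 15891 to 17092 on quiescent and from 2249 to 3516 on activated arrays, and 4 of 5 tested markers were lower. Such sums are weighted to the brightest probe set, here Slc2a1, and without it they ranged from 1413 to 4306 against 216 to 293. Pecam1, Kdr, Tek and Emcn were at or below background on all 3 activated arrays. For 10 pericyte and fibroblast markers the sums ranged from 6363 to 10177 against 341 to 756, with 6 of 6 tested markers lower. Kcnj8, Abcc9, Dcn and Lum were at or below background on all activated arrays. Lum was so on all 3 quiescent arrays too, and Kcnj8, Abcc9 and Dcn on 2 quiescent arrays each. For 8 mature oligodendrocyte markers they ranged from 16676 to 65837 against 2196 to 5504, with 8 of 8 lower and none at background on every array of a group. Of 10 ependymal markers 9 had a negative difference and Dnah11 alone was called higher, with 2 of 4 tested markers lower. Without Dnah11 the ependymal sums ranged from 1589 to 1702 against 225 to 347, and with it from 1672 to 1838 against 1843 to 2784. Microglial sums were low, from 432 to 597 against 146 to 187, with Aif1, C1qa and Tmem119 at or below background on all 6 arrays. Of 5 tested mature neuron markers 2 were higher, as was 1 of 5 oligodendrocyte precursor markers, and the 2 tested choroid plexus markers were not called. The part of these cell types in the lower Wnt receptors, ligands and inhibitors was not tested.

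**Figure D2:**
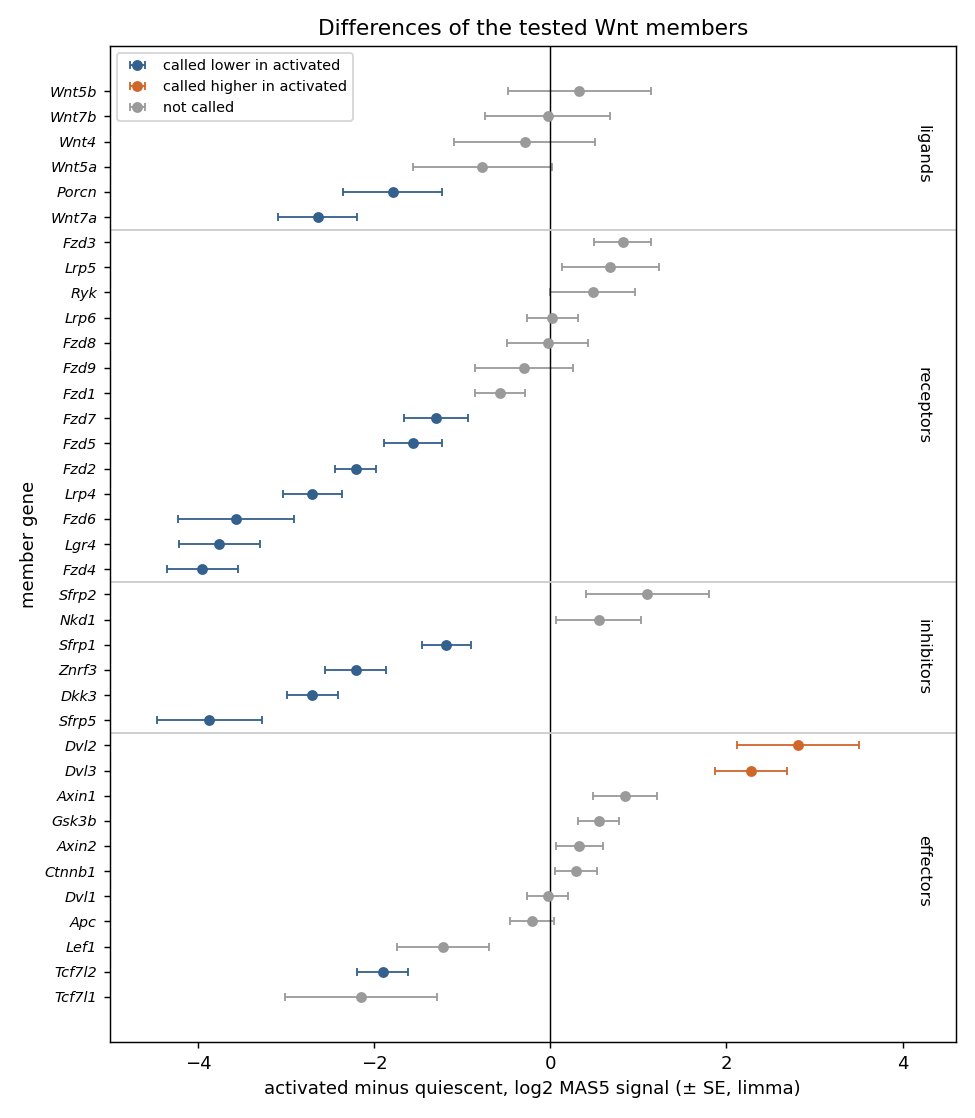
Difference between activated and quiescent arrays in log2 MAS5 signal (horizontal axis, points with SE from limma) for the 37 tested Wnt members (vertical axis), grouped by role. Called genes are coloured, and the 14 lower genes, from Fzd4 at -3.95 to Sfrp1 at -1.18, lie mostly among receptors and inhibitors.

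Of the 10 inhibitor genes 6 were tested and 4 were lower in activated cells, the secreted Dkk3, Sfrp1 and Sfrp5 and the membrane ligase Znrf3. The share of lower genes among all tested ones was 17.6%. Dkk3, a divergent member of the Dickkopf family, read 14.57, 14.05 and 13.65 on quiescent and 11.16, 11.70 and 11.31 on activated arrays. It fell by 2.70 ± 0.29 (6.49-fold, adjusted p = 0.000111 in limma), and its further probe set differed by -3.03. The groups were far apart for both probe sets.

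Sfrp1 and Sfrp5 encode secreted Frizzled-related proteins, which bind Wnts outside the cell. Sfrp1 read 12.11, 11.83 and 11.49 on quiescent and 10.32, 10.82 and 10.75 on activated arrays and fell by 1.18 ± 0.28 (adjusted p = 0.0088 in limma). Its 4 further probe sets differed by -0.43 to -1.18, but the call was lost after median centring (adjusted p = 0.201), after hybridisation-control scaling (0.275) and with the most variable probe set (0.596). Sfrp5 read 8.65, 7.88 and 8.97 on quiescent and 5.01, 4.12 and 4.75 on activated arrays, and fell by 3.87 ± 0.60 (adjusted p = 0.000826). With the 1 activated array at or below background raised to that level, Sfrp5 was 13.4-fold lower. This bound sets the quiescent mean against the activated mean, with each activated array held at its background where it was dimmer. The further Sfrp5 probe set differed by -3.02 but overlapped between groups, with 3 arrays at or below background. Sfrp2, of the same family, differed by 1.10 ± 0.70, overlapped between groups and was not called.

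Znrf3, the membrane ubiquitin ligase that removes Frizzled and Lrp6, read 10.13, 9.99 and 10.10 on quiescent and 8.08, 7.83 and 7.66 on activated arrays. It fell by 2.21 ± 0.35 (4.64-fold, adjusted p = 0.000974 in limma), with an SD of 0.07 among quiescent and 0.21 among activated arrays. Its partner Rnf43 lay below the filter, reading 2.51, 5.72 and 5.85 on quiescent and 0.00, 0.26 and 0.60 on activated arrays. All activated arrays and 1 quiescent array were at or below background for Rnf43. With no filter its difference of -4.41 had an adjusted p of 0.0143, which rests on signals near background. Nkd1, a Dishevelled-binding antagonist and common target of the pathway, differed by 0.55 ± 0.48 and was not called.

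Dkk1, Wif1 and Frzb, which encode further secreted antagonists, were dim. Dkk1 and Wif1 were at or below background on all 6 arrays in their brightest probe sets, and Frzb on 2 quiescent arrays and 1 activated array. Dkk1, Frzb and Ror2 were the 3 members with a further probe set that differed in the opposite direction by at least 1, all of them below the filter.

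Among the intracellular effectors, Dvl2 and Dvl3 were higher in activated cells, Tcf7l2 was lower, and 8 of the 11 tested were not called. Of all tested genes 34.9% were called. Dvl2 read 4.43, 5.79 and 7.09 on quiescent and 8.62, 8.19 and 8.91 on activated arrays, a difference of 2.81 ± 0.69 (adjusted p = 0.0101 in limma). With the 1 quiescent array at or below background raised to that level, Dvl2 was 4.76-fold higher. Its further probe set differed by 2.94. Dvl3 read 7.70, 8.72 and 7.79 on quiescent and 10.76, 10.20 and 10.09 on activated arrays and was 2.28 ± 0.41 higher (4.85-fold, adjusted p = 0.00182). Both Dvl2 and Dvl3 were called higher in all 20 alternatives. Dvl1, the third Dishevelled gene, read 13.51, 13.20 and 13.42 on quiescent and 13.15, 13.58 and 13.31 on activated arrays, a difference of -0.03 with a 95% interval from -0.54 to 0.47.

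The 250 bases upstream of the RefSeq start (build GRCm38.p6) are shown for the receptors Fzd4 and Lgr4, which had the largest decreases among receptors, and for Dvl2 and Dvl3, the genes that moved the other way. Promoter windows were found for 32 of the 48 members, 41 windows in all. Capitals mark the GC box GGGCGG, the CCAAT box CCAAT and the TCF/LEF core CTTTGAT on either strand, and matches of one motif may overlap. The windows are chr7:89404116-89404365 (+) for Fzd4, chr2:109917397-109917646 (+) for Lgr4, chr11:70000342-70000591 (+) for Dvl2 and chr16:20516736-20516985 (+) for Dvl3.
Fzd4: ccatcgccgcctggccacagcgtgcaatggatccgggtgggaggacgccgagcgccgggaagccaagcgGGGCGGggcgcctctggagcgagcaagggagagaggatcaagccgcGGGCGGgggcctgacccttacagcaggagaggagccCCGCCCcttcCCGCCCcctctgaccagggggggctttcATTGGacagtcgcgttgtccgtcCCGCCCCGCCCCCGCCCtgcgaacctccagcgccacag
Lgr4: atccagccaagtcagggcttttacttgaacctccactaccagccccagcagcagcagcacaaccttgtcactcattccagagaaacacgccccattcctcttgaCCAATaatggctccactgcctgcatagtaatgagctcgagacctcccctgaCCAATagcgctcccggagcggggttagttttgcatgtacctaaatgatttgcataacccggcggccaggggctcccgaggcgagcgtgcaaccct
Dvl2: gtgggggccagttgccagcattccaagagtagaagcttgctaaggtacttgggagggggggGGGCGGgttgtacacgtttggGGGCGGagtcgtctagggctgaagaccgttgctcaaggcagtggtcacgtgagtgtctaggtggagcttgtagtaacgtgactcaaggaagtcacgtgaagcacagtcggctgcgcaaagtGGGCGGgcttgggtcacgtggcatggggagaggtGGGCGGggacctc
Dvl3: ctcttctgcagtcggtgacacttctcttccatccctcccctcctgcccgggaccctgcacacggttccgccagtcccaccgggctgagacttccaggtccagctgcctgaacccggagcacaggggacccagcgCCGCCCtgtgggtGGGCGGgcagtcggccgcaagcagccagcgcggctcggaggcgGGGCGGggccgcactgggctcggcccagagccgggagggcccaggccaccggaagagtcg
The Fzd4 stretch held 7 GC boxes and 1 CCAAT box, and that of Lgr4 2 CCAAT boxes and 0 GC boxes. Those of Dvl2 and Dvl3 held 4 and 3 GC boxes and 0 CCAAT boxes. Over the whole 300-base windows, which add 50 bases after the start, a GC box was found in 29 of the 41 windows of members, beside 35.7% of all 32851 windows. A CCAAT box was found in 11 of 41, beside 37.4% of all windows. Of members with a window, 6 of 7 lower and 2 of 2 higher ones held a GC box, and 5 of 7 lower and 0 of 2 higher ones a CCAAT box. The TCF/LEF core was found in 1 member, Wnt5b, beside 3.73% of all windows, at 71 bases before the start (chr6:119449431-119449477, minus strand). Its surroundings are shown because no other member window held the core.
Wnt5b: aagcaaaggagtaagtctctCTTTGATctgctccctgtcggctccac

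The destruction complex was not called in its brightest probe sets. Axin2, both a scaffold and the most used reporter gene of beta-catenin signalling, read 10.58, 10.75 and 10.62 on quiescent and 11.07, 10.74 and 11.15 on activated arrays. The groups overlapped, and the difference was 0.33 ± 0.27 (adjusted p = 0.347 in limma) with a 95% interval from -0.25 to 0.92. It was called higher after median centring (adjusted p = 0.0444), at 0.889, which is 1 of 20 alternatives and one under which the median over all tested genes was 0.568. Axin1 was 0.85 ± 0.36 higher without overlap but was not called (adjusted p = 0.086). Its further probe set differed by only 0.05 and overlapped between groups. When its probe sets were averaged, Axin1 differed by 0.453 (adjusted p = 0.282 in limma).

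Gsk3b, the kinase of the complex, read 12.52, 12.40 and 12.09 on quiescent and 12.93, 12.96 and 12.77 on activated arrays, a difference of 0.55 ± 0.23 (adjusted p = 0.089 in limma) without overlap. Both Axin1 and Gsk3b were called higher after median centring and after scaling to the hybridisation controls. The 6 Gsk3b probe sets differed by -0.47 to 1.67, both of these without overlap, and Gsk3b was called higher with the most variable one (adjusted p = 0.0224). Apc read 11.68, 11.53 and 11.61 on quiescent and 11.66, 11.13 and 11.38 on activated arrays, a difference of -0.21 ± 0.25 (adjusted p = 0.534) with a 95% interval from -0.78 to 0.35. Its groups overlapped.

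Beta-catenin depended on the probe set. The brightest Ctnnb1 probe set read 14.10, 13.72 and 13.36 on quiescent and 14.08, 14.04 and 13.92 on activated arrays, a difference of 0.29 ± 0.24 (adjusted p = 0.38 in limma). The other 2 read 9.10, 9.16 and 8.82 against 11.31, 11.23 and 11.49, and 9.89, 9.96 and 10.41 against 12.33, 12.37 and 11.92. They differed by 2.32 and 2.12 with no overlap. When the 3 were averaged Ctnnb1 was 1.58 ± 0.198 higher (adjusted p = 0.000297), and the brightest one alone was called after scaling to the hybridisation controls (0.0167).

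Lrp6 and Nkd1 also had a further probe set that departed from the brightest one, and these genes were singled out after their values were seen. The further Lrp6 probe set read 8.09, 5.68 and 9.20 on quiescent and 10.05, 10.62 and 9.58 on activated arrays, a difference of 2.42. Its adjusted p was 0.0334 in limma with the most variable probe set of each gene. A Nkd1 probe set read 4.82, 3.99 and 6.13 on quiescent and 7.79, 8.40 and 8.13 on activated arrays, a difference of 3.13 (adjusted p = 0.00916 by the same choice), while its 3 others differed by 0.26 to 0.55. That choice, also used for Gsk3b above, takes the variance over all arrays. It therefore favours probe sets with a large difference between groups, and these p-values are not independent of it. For the 16 called members, 13 had further probe sets, 22 in all, of which 20 differed in the called direction. The 2 exceptions belong to Tcf7l2.

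**Figure D3:**
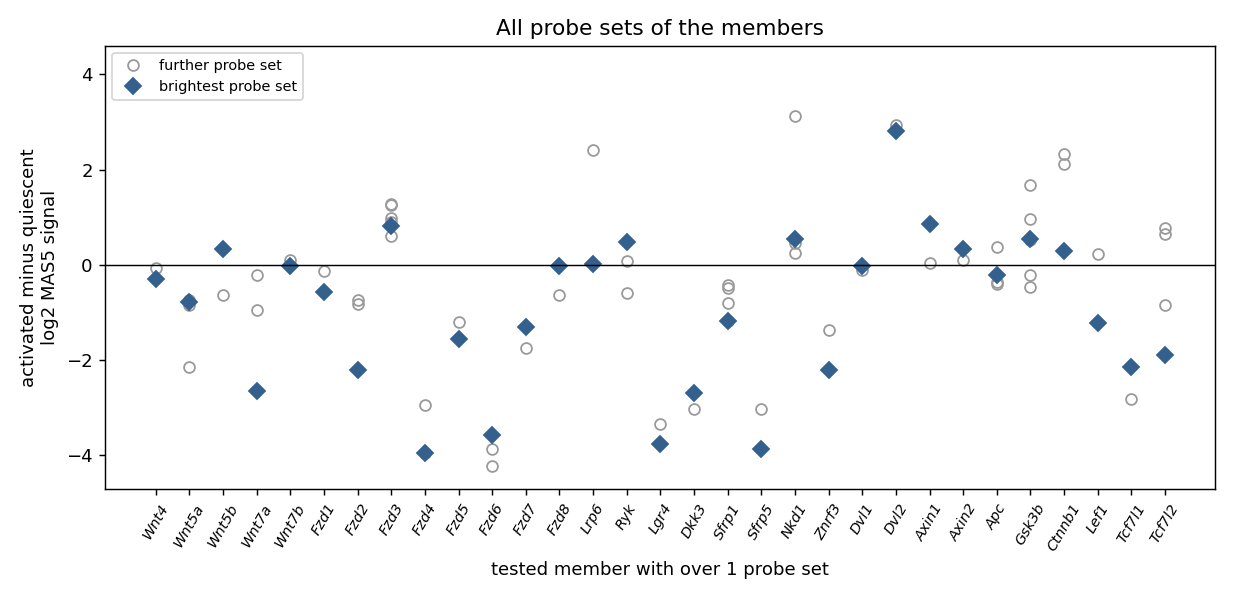
Difference between activated and quiescent arrays in log2 MAS5 signal (vertical axis) for every probe set of the tested Wnt members with more than 1 (horizontal axis). Diamonds mark the brightest probe set and open circles the further ones. Further probe sets stand apart from the brightest one for several genes, among them Wnt7a, Fzd2, Lrp6, Nkd1, Gsk3b, Ctnnb1, Lef1 and Tcf7l2.

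The nuclear factors were lower or not called. Tcf7l2, which acts with beta-catenin on target genes, read 12.17, 12.02 and 11.49 on quiescent and 9.78, 9.97 and 10.25 on activated arrays. It fell by 1.90 ± 0.29 (3.72-fold, adjusted p = 0.000796 in limma) with no overlap. Its 3 further probe sets differed by -0.84, 0.64 and 0.77, so that the mean of the 4 differed by only -0.33 (adjusted p = 0.563) and the most variable one by 0.773 (adjusted p = 0.58). The Tcf7l2 result was not the same for all of its probe sets.

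Tcf7l1, a factor known mostly as a repressor, read 5.65, 8.76 and 9.07 on quiescent and 5.37, 5.82 and 5.84 on activated arrays. Its difference of -2.15 ± 0.86 was not called (adjusted p = 0.0758 in limma), quiescent array 1 being at or below background while the other two were high. Without that array the difference was -3.24 (adjusted p = 0.00312), and the second probe set, at 7.49, 7.49 and 9.33 against 3.80, 6.05 and 6.05, differed by -2.81 without overlap. With the replicate number as a block Tcf7l1 was called (adjusted p = 0.0488). Lef1 read 8.95, 9.09 and 7.88 on quiescent and 7.20, 6.94 and 8.10 on activated arrays, a difference of -1.22 ± 0.52 (adjusted p = 0.0932) with overlap in 1 array of each group. Lef1 was called in 2 of 20 alternatives, without quiescent array 3 (adjusted p = 0.0316) and with array quality weights (0.0475). Its further probe set differed by 0.22, the opposite direction, and overlapped between groups. When its probe sets were averaged, Lef1 differed by -0.504 (adjusted p = 0.509 in limma).

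A wider list of 134 other pathway genes, grouped by role, gave 23 higher and 13 lower genes among 94 tested, with a median difference of 0.19. Its 36 calls compare with 34.9% called, 17.3% higher and 17.6% lower among all tested genes. Without activated array 1 or 2 the higher count was 15 in each case. Among all 11575 tested genes the higher count then went from 2004 to 1407 and 1315. After scaling to the hybridisation controls there were 31 higher and 5 lower genes of the list, beside 3059 higher and 943 lower among all tested genes. In the secretion group 1 of 5 tested genes was called. This was Wls, the carrier that takes Wnts to the cell surface, which read 10.96, 10.29 and 10.67 on quiescent and 7.68, 7.23 and 6.43 on activated arrays. It fell by 3.52 ± 0.43 (11.5-fold, adjusted p = 0.000229 in limma), the same direction as Porcn and Wnt7a. The difference was -1.64 (adjusted p = 0.0154) when its 4 probe sets were averaged.

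Of the other receptors and membrane cofactors, 1 of 4 tested was lower, beside 17.6% of all tested genes. Reck, a membrane protein needed for Wnt7 signalling, fell by 1.35 ± 0.41 (adjusted p = 0.0268 in limma). That call was lost without quiescent array 1 or 2 (adjusted p = 0.0503 and 0.0514), without activated array 1 or 2 (0.0688 and 0.0924) and after median centring (0.178) or scaling to the hybridisation controls (0.316). Of the other inhibitors 1 of 5 tested was called, beside 34.9% of all tested genes. Draxin, an axon guidance protein reported to antagonise Wnt signalling, read 8.57, 9.56 and 7.31 on quiescent and 11.53, 11.84 and 11.78 on activated arrays and was 3.24 ± 0.49 higher (adjusted p = 0.000748).

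In the group of other destruction complex genes and kinases, 6 of 22 tested genes were higher and 0 lower, beside 17.3% and 17.6% of all tested genes. At an unadjusted p under 0.05 in limma, 0 were lower. The largest increases were those of the phosphatase subunit Ppp2r5d at 2.34 ± 0.57 (adjusted p = 0.00963 in limma) and the casein kinase Csnk1g2 at 2.00 ± 0.36 (adjusted p = 0.00192). Of 19 tested nuclear partners 6 were higher, 1 was lower and 12 were not called, beside 17.3% higher and 17.6% lower among all tested genes. Parp1 was 2.56 ± 0.35 higher (adjusted p = 0.000419), though not with its most variable probe set (0.394), and the chromatin remodeller Smarca4 was 1.76 ± 0.25 higher (adjusted p = 0.000479). The Groucho corepressor Tle4 fell by 1.46 ± 0.30 (adjusted p = 0.0044), which was not called after median centring (0.0614) or after hybridisation-control scaling (0.189).

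Genes of the planar polarity and calcium branches went both ways, with 3 higher and 7 lower of 25 tested, beside 34.9% called among all tested genes. Daam2, a formin that binds Dishevelled, read 12.11, 11.70 and 12.18 on quiescent and 4.50, 6.52 and 4.20 on activated arrays (adjusted p = 4.49e-05 in limma). With the 2 activated arrays at or below background raised to that level, Daam2 was 106-fold lower. Its difference was -6.27 when its probe sets were averaged. Nfatc2, a calcium-responsive factor, fell by 2.37 ± 0.43 (adjusted p = 0.00199). Celsr3, a polarity cadherin of neurons, read 2.34, 6.81 and 6.37 on quiescent and 10.09, 9.29 and 9.43 on activated arrays. It was called higher (adjusted p = 0.00683), and the fold was 9.05 with the 1 quiescent array at or below background raised to that level. Mapk8, the kinase also called JNK, was 2.07 ± 0.45 higher (adjusted p = 0.00555), but not when its probe sets were averaged (0.125).

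Of 14 tested genes from a list of other direct targets, 7 were higher and 3 lower, beside 17.3% and 17.6% of all tested genes. Birc5, an inhibitor of apoptosis that also acts in mitosis, was 4.09 ± 0.35 higher (adjusted p = 4.35e-05 in limma). Mycn, a growth-promoting factor, was 3.08 ± 0.35 higher (adjusted p = 0.000161), and 1.48 higher when its probe sets were averaged (0.00982). Id2, an inhibitor of differentiation factors, fell by 3.71 ± 0.33 (adjusted p = 5.35e-05) and the receptor Ephb3 by 1.87 ± 0.46 (adjusted p = 0.00988), the latter not after median centring (0.0515) or scaling to the hybridisation controls (0.0643). These genes answer to many pathways. Axin2, a member that is also a target, had a positive difference in all 20 alternatives but was called in only 1. The part of beta-catenin signalling in any of these differences was not tested.

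**Figure D4:**
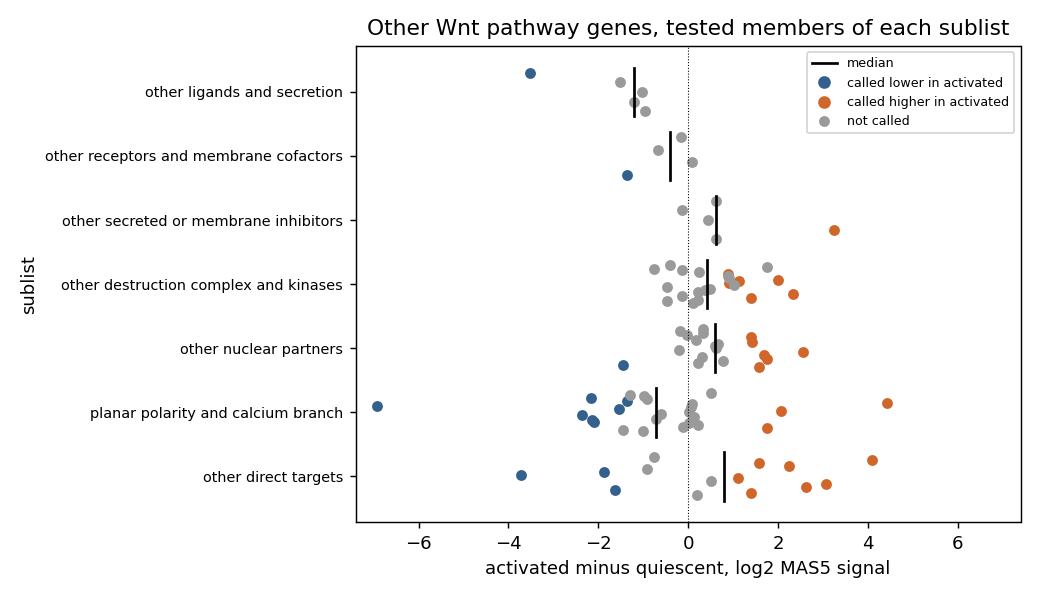
Difference between activated and quiescent arrays in log2 MAS5 signal (horizontal axis) for the tested genes of 7 sublists of other Wnt pathway genes (vertical axis), each point a gene and each black bar the sublist median. Called genes are coloured, with Daam2 the lowest at -6.92 and Celsr3 the highest at 4.43.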

How the data were processed

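Per the labels' protocols, RNA for the 3 quiescent and 3 activated arrays was isolated with miRNeasy, amplified by NuGEN Pico and biotinylated. The authors deposited log2 signals from MAS5 (named in the submitters' processing notes). The sources used here do not give its version, detection calls or a genome build. The linear 2% trimmed mean was 500.0 on every array, so total RNA per cell cannot be read. Of 45101 probe sets, 64 controls were left out, and 34945 had 1 gene in the platform annotation, 932 several and 9160 none. Symbols were updated by Entrez identifier through RefSeq (assembly GRCm38.p6), which held 99.1% of the identifiers.

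The brightest probe set of each gene was kept, and genes with a mean of at least 6.018, the 40th percentile over probe sets, were tested with lmFit and eBayes with a variance trend in limma 3.58.1 (R 4.3.3), with no block. Background was the 95th percentile of 27 control probe sets for bacterial transcripts. The fit was checked on simulated data. Alternatives covered scaling, filters, floors, probe set choice, the variance model, the replicate number as a block and each array left out. The number of arrays limits the precision. Members and lists were chosen with earlier results of these data known. Every called member and the core genes of beta-catenin signalling are given by array, and from each wider sublist up to 2 called genes per direction. Promoter sequences are from RefSeq (GRCm38.p6). Figures were drawn with matplotlib 3.10.9.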

Additional observations from a re-analysis of the deposited data

How the results depend on the processing

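After median centring, 3527 of all genes were higher and 1191 lower, with 6 Wnt members higher, 8 genes of the wider list lower and a member median of 0.25. After scaling to the hybridisation controls the same values were 3059, 943, 6, 5 and 0.339. The number of higher members was 5 from the mean of all probe sets and 6 with the most variable probe set, which gave 9 lower members and turned Tcf7l2 to 0.773. Leaving out 1 array gave a member median from -0.661 to -0.395, from 15 to 22 higher genes of the wider list, and from 1315 to 2440 higher genes among all tested, with 12 to 14 lower and 2 higher members. The causes were not tested. With no filter, 16 members were lower, the extra genes being Fzd10 and Rnf43. Deviations of same-numbered arrays correlated at 0.0561, -0.0247 and 0.0291, and those of differently numbered arrays at -0.0819 to 0.0503. With so few arrays per group, these values cannot decide whether same-numbered arrays were prepared together. With the replicate number as a block, 2 members were higher and 15 lower. Signals near background limit Dvl2, Sfrp5 and the 10 dim members.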
